A study of Mus musculus with 6 samples.

Results

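The immunity-related GTPases (IRG proteins) are described here in mouse bone marrow-derived macrophages cultured with a cancer cell line. The 7 genes Irgm1, Irgm2, Igtp, Iigp1, Ifi47, Tgtp1 and Tgtp2 were taken by symbol, and each matched 1 of the 56691 gene rows of the deposited table. The choice was by family membership, and it was made with earlier results of these data known. Macrophages were induced with M-CSF and sorted for RNA sequencing after culture with mEC25 cells, which the series title calls a cancer cell line. In 3 libraries the culture was direct (contact), and in 3 libraries a transwell separated the cell types (transwell). Both groups share the macrophage source, the M-CSF induction and the presence of mEC25 cells, and macrophages without mEC25 cells were not analysed here. The sources used here give no mouse strain, sex, age, culture time or sorting gate. The labels do not say whether the replicates are separate cultures or animals, so the p-values measure the spread between these libraries, which may be technical. The comparison asks how the transcripts differ between direct and indirect culture.

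IRG proteins are large GTPases that interferons, above all interferon gamma, induce in mouse cells, where they act against bacteria and parasites living inside vacuoles. The effector members (Iigp1, whose protein is called Irga6, Tgtp1 and Tgtp2, whose proteins are called Irgb6, and Ifi47, whose protein is called Irgd) can load onto the membrane of such a vacuole and help to break it. The regulator members (Irgm1, Irgm2 and Igtp, whose protein is called Irgm3) sit on the cell's own membranes and keep the effectors inactive there. Transcription of these genes is known to pass through interferon receptors, JAK kinases and STAT and IRF factors, which bind gamma-activated (GAS) and interferon-stimulated response (ISRE) elements.

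The sequences just upstream of the transcript starts are shown first, because several members share a short arrangement of letters there, which also occurs in a related gene that was not called. RefSeq promoter sequences on GRCm38.p6 were found for 6 of the 7 members, all on chromosome 11, and were searched on both strands over the 250 bases before the start. An ISRE-like match was defined as GAAA, any 2 bases and GAAA again, and a GAS-like match as TTCNNNGAA, which reads the same on both strands. Capitals mark the matches, and each sequence runs 5′ to 3′ on its gene's strand.
Igtp: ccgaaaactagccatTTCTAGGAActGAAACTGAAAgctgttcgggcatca
Irgm2: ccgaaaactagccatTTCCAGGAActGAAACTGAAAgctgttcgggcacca
Tgtp1: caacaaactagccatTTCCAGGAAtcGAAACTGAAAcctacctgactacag
Tgtp2: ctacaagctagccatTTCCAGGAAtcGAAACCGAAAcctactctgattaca
Gm12185: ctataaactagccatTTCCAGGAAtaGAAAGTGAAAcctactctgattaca
Irgm1: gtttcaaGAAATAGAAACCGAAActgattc
The Igtp stretch lies at chr11:58199496-58199546 and the Irgm2 stretch at chr11:58214887-58214937, both on the plus strand. On the minus strand lie the Tgtp1 stretch (chr11:48992299-48992349), the Tgtp2 stretch (chr11:49064258-49064308), that of the related gene Gm12185 (chr11:48927233-48927283) and that of Irgm1 (chr11:48871428-48871457). The Irgm1 stretch is inside an exon of Irgm1 in the GENCODE M21 annotation, and the others overlap no M21 exon. The Irgm2, Tgtp1 and Gm12185 stretches lie inside the M21 spans of their own genes. Their place upstream of a start therefore rests on the RefSeq starts.

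In Igtp, Irgm2, Tgtp1, Tgtp2 and Gm12185 the GAS-like match was followed by the ISRE-like match with 2 bases between them. Irgm1 held 2 overlapping ISRE-like matches and no GAS-like match, and neither pattern was found in the Ifi47 window. Of the related genes searched, Gm12250 held 2 ISRE-like matches and 1 GAS-like match, while Gm5431, 9930111J21Rik1, 9930111J21Rik2 and Irgq held neither pattern. Ifi47 and Gm5431 fell without a match (log2 change -1.14 and -1.29, edgeR adjusted p = 1.21e-05 and 0.000204). Gm12185, with both matches, was not called (-0.46, adjusted p = 0.286), at 19 to 35 counts a library. It shares 223 exon bases with Tgtp1 on the same strand in M21. Gm12250, with both matches, fell (-1.14, adjusted p = 6.01e-05), as did the 5 members with an ISRE-like match. Without a match, 9930111J21Rik1, 9930111J21Rik2 and Irgq were not called (-0.64, -0.87 and 0.01). Whether the matches bear on the changes was not tested. An ISRE-like match was present for 5 of 6 members and in 2.98% of the 32851 promoter windows of the table, and a GAS-like match for 4 of 6 members and in 7.02% of windows. A kappa B-like pattern (GGG, any 2 bases, TTTCC) was found for none of the 6 members and in 1.41% of windows. The joined arrangement, a GAS-like match, any 2 bases and an ISRE-like match, occurred in 5 of 32851 windows (0.015%), which were those of Igtp, Irgm2, Tgtp1, Tgtp2 and Gm12185. That arrangement was read off the members' own sequences, and near copies of a gene share their upstream letters, so these counts are a description. The 51-base stretches of Igtp and Irgm2 were identical at 49 bases, those of Tgtp2 and Gm12185 at 46, those of Tgtp1 and Tgtp2 at 39 and those of Igtp and Tgtp1 at 34. No binding was measured, and a match of letters does not show a site in use.

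**Figure D1:**
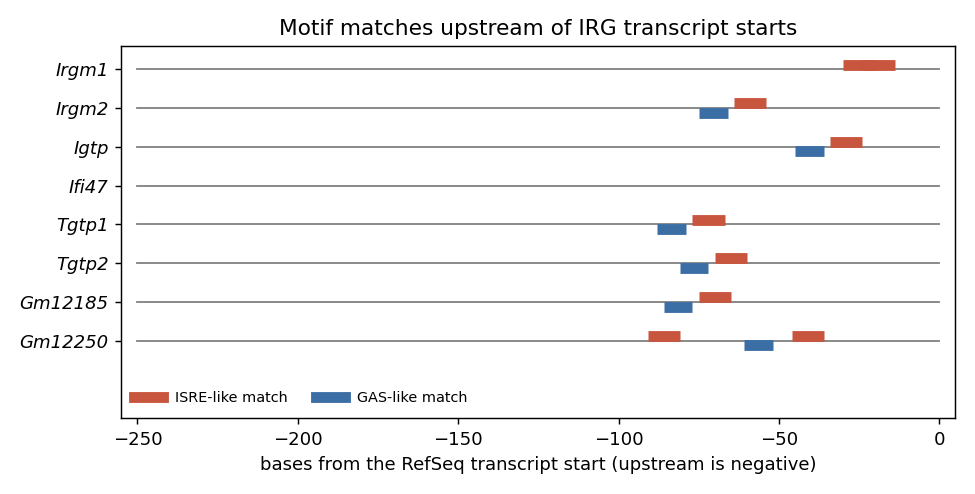
Position of ISRE-like (red) and GAS-like (blue) letter matches on the 250 bases upstream of the RefSeq transcript start, in bases from the start, for 6 members and the related genes Gm12185 and Gm12250. Igtp, Irgm2, Tgtp1, Tgtp2 and Gm12185 show the blue match directly upstream of the red one, and Ifi47 shows neither.

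The IRG transcripts were lower in contact macrophages. All 7 members passed the filter on low counts and all 7 fell (edgeR quasi-likelihood test, adjusted p from 3.87e-06 to 0.0038), where 16.1% of the 14113 tested genes were called lower. None of the 7 rose, where 21.4% of genes were called higher and 37.5% in either direction. Their median log2 change was -1.25, against 0.025 over all tested genes. Each member's contact libraries lay below all of its transwell libraries in FPKM, as they did for 15.3% of tested genes (35.8% had the reverse order). In the main fit each change was a fall of at least 2-fold, as for 2.38% of genes, with Irgm2 only just past it at 2.01-fold. Summed over the members, the FPKM values were 51.3, 49.3 and 53 in contact libraries and 105, 115 and 98.5 in transwell libraries. RNA of sorted cells in bulk cannot tell fewer expressing cells from less RNA per cell.

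The depth ranged from 20911880 to 22563835 counts a library for contact and from 18173192 to 18895818 for transwell. Of 12 macrophage markers tested, 3 were higher and 6 lower in contact, with summed FPKM from 16200 to 18200 against 18100 to 19300, so macrophage transcripts were abundant in both groups. Lyz2 made up most of that sum (12200 ± 838 FPKM in contact and 13300 ± 484 in transwell, SD, n = 3), and other markers moved apart, with Fcgr1 (log2 change -1.91), Adgre1 (-1.20) and Cd68 (-0.70) lower and Cd14 (1.49) higher. Of 15 tested epithelial markers 14 rose in contact, with a summed level of 937 to 1650 FPKM against 5.26 to 5.75 in transwell libraries. The part of RNA from epithelial cells in the result was not tested. With libraries scaled to the macrophage markers all 7 members were called lower too, with a median of -1.01, while that scaling moved the median of all genes to 0.27. Of 6 tested fibroblast markers 4 were higher, with sums of 10.5 to 24.9 against 3.54 to 8.03 FPKM. Of 9 tested neutrophil markers 4 were higher, with overlapping sums of 767 to 1130 against 487 to 1140 FPKM. The part of fibroblast and neutrophil RNA in the result was not tested. Beside these marker counts, 21.4% of all tested genes were called higher and 16.1% lower. T and NK cell markers summed to 5.92 to 7.85 against 3.68 to 4.75 FPKM, mostly through Cd4 (4.72 ± 1.08 against 1.76 ± 0.15, SD, n = 3), with Cd3e at 0.0367 and 0.0333 FPKM, and of 3 tested 1 was higher and 1 lower. Dendritic cell markers (1 tested, not called) summed to at most 0.4 and 0.55 FPKM. B cell markers summed to 4.98 to 6.64 against 6.87 to 9.34 FPKM, and the 1 tested was lower.

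**Figure D2:**
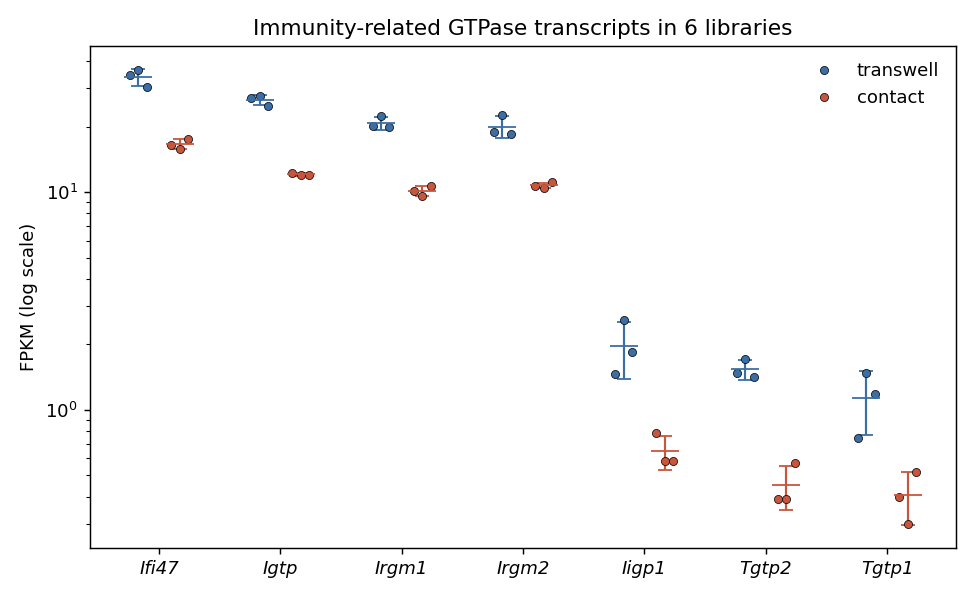
FPKM of each IRG member in the 3 transwell (blue) and 3 contact (red) libraries on a log axis, with the mean (wide bar) and SD. For every member the red points lie below the blue ones, and the means of Iigp1, Tgtp1 and Tgtp2 are more than 10 times below those of the other members.

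Among the regulators, Irgm1 (ENSMUSG00000046879, chromosome 11, 48861968 to 48871683 on the minus strand of GRCm38) protects macrophages against intracellular bacteria and bears on autophagy. Its level was 10.19, 9.65 and 10.7 FPKM in contact replicates 1 to 3 and 20.12, 22.51 and 19.91 FPKM in transwell replicates 1 to 3. The groups did not overlap, and the highest contact value was well below the lowest transwell value. Irgm1 was 2.22-fold lower (log2 change -1.15 ± 0.081, SE, edgeR adjusted p = 5.79e-06).

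Irgm2 (ENSMUSG00000069874, chromosome 11, 58199618 to 58222782, plus strand) is a regulator of membranes of the Golgi region. It stood at 10.74, 10.52 and 11.1 FPKM in contact libraries and at 18.87, 22.7 and 18.58 FPKM in transwell libraries. Contact libraries lay close together, while transwell replicate 2 was above the other two. The change was the smallest of the 7 members, 2.01-fold lower (log2 change -1.01 ± 0.094, edgeR adjusted p = 3.02e-05).

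Igtp (ENSMUSG00000078853, chromosome 11, 58199556 to 58207591, plus strand) encodes the regulator found on the endoplasmic reticulum and lipid droplets. Values were 12.3, 12.01 and 11.96 FPKM in contact and 27.17, 27.7 and 24.98 FPKM in transwell libraries. It had the tightest contact replicates of the family, with a coefficient of variation of 1.52%, and no overlap with transwell. Igtp fell 2.38-fold (log2 change -1.25 ± 0.083, edgeR adjusted p = 3.87e-06). The spans of Igtp and Irgm2 overlap on the same strand and 162 exon bases are shared in M21, 8.01% of the Igtp exons and 4.39% of the Irgm2 exons. With the counts of both genes summed (1455, 1320 and 1446 in contact, 2354, 2540 and 2211 in transwell libraries), the log2 change was -1.11 (edgeR adjusted p = 6.18e-06).

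Of the effectors, Ifi47 (ENSMUSG00000078920, chromosome 11, 49076587 to 49096974, plus strand) had the highest level of the family in every library. It reached 16.54, 15.89 and 17.58 FPKM in contact and 34.73, 36.47 and 30.57 FPKM in transwell libraries. The groups were far apart relative to their spread. Ifi47 was 2.2-fold lower (log2 change -1.14 ± 0.091, edgeR adjusted p = 1.21e-05). An olfactory receptor gene, Olfr56, spans Ifi47 on the same strand and shares 111 exon bases with it, but held only 2 to 5 counts in a contact library and 13 to 21 in a transwell one, against 822 to 1639 for Ifi47.

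Iigp1 (ENSMUSG00000054072, chromosome 18, plus strand), the effector best known from vacuoles of Toxoplasma, was low in these cells. It stood at 0.78, 0.58 and 0.58 FPKM in contact libraries, from 71 to 102 counts, and at 1.46, 2.59 and 1.84 FPKM in transwell libraries, from 161 to 274 counts. Transwell replicate 1 was the lowest of its group and still above all contact values. Iigp1 fell 3.28-fold (log2 change -1.71 ± 0.23, edgeR adjusted p = 0.00027).

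Tgtp1 (ENSMUSG00000078922, chromosome 11, 48985327 to 48994172) and Tgtp2 (ENSMUSG00000078921, chromosome 11, 49057194 to 49064206) are near-identical copies on the minus strand. Of the 50-base windows of Tgtp1 transcripts, 79.4% also occur in Tgtp2 transcripts, and 85.8% of those of Tgtp2 occur in Tgtp1, so how counts were divided between them is uncertain. For Irgm1, Iigp1 and Ifi47 the share of windows found in any other gene was 0.31%, 1.69% and 2.54%, for Irgm2 7.77% and for Igtp 11.8%. Tgtp1 stood at 0.4, 0.3 and 0.52 FPKM in contact and at 0.74, 1.48 and 1.19 FPKM in transwell libraries, from 20 to 86 counts. Its transwell values differed 2-fold among themselves, the widest spread of the family. Tgtp1 was 3.01-fold lower (log2 change -1.59 ± 0.32, edgeR adjusted p = 0.0038).

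For Tgtp2 the values were 0.39, 0.39 and 0.57 FPKM in contact and 1.48, 1.72 and 1.41 FPKM in transwell libraries, from 24 to 92 counts. Its transwell libraries were closer together than those of Tgtp1, and the groups did not overlap. Tgtp2 showed the largest change of the 7 members, 3.68-fold lower (log2 change -1.88 ± 0.24, edgeR adjusted p = 0.000242). Because the copies cannot be told apart well, their counts were also summed, which gave 55, 44 and 74 in contact and 127, 178 and 148 in transwell libraries. The sum fell by 1.75 on the log2 scale (SE 0.225, edgeR adjusted p = 0.000231). The call of Tgtp1 ended in limma on log2(FPKM + 1) without a filter (log2 change -0.59, adjusted p = 0.0564) and held on the same scale with the filter (-0.59, adjusted p = 0.00975).

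Levels per length kept a similar order in both groups. In transwell libraries Ifi47 (33.9 ± 3.03 FPKM, SD, n = 3) was above Igtp (26.6 ± 1.44), which was above Irgm1 (20.8 ± 1.44) and Irgm2 (20.1 ± 2.3). The ranges of Irgm1 and Irgm2 overlapped. A gap followed to Iigp1 (1.96 ± 0.575), Tgtp2 (1.54 ± 0.163) and Tgtp1 (1.14 ± 0.373), whose neighbouring ranges overlapped. In contact libraries Ifi47 (16.7 ± 0.852) and Igtp (12.1 ± 0.184) again led. Irgm2 (10.8 ± 0.293) and Irgm1 (10.2 ± 0.525) followed with overlapping ranges. Iigp1 (0.647 ± 0.115) was then above Tgtp2 (0.45 ± 0.104) without overlap, and Tgtp2 and Tgtp1 (0.407 ± 0.11) overlapped.

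Ifi47 and Irgm1 held similar shares of the family total in both groups. Of the summed FPKM of the 7 members, Ifi47 made up 32.5 ± 0.55% (SD, n = 3) in contact and 32 ± 1.12% in transwell libraries, and Irgm1 19.9 ± 0.314% and 19.7 ± 0.5%. Irgm2 took 21.1 ± 0.227% in contact against 18.9 ± 0.832% in transwell libraries, without overlap. Igtp took 23.6 ± 0.937% in contact against 25.1 ± 0.986% in transwell libraries, with overlap. The low members together took small shares, with Iigp1 at 1.26 ± 0.226% against 1.84 ± 0.427% and Tgtp2 at 0.875 ± 0.174% against 1.45 ± 0.0412%. Whether members fell by different amounts was asked for all 21 pairs, from the log2 ratio of their counts in each library. In 9 pairs the ratios of the groups did not overlap. The pairs reuse the same 7 genes and are not independent, and how often other gene pairs separate was not counted. Among the larger differences, the log2 changes of Irgm2 and Tgtp2 differed by 0.90 ± 0.16 (SE), and those of Irgm1 and Tgtp2 by 0.76 ± 0.15. Tgtp2 had only 24 to 92 counts a library. Irgm1 and Ifi47 differed by -0.01 ± 0.049. An exact two-sided permutation test of 3 against 3 libraries cannot go below p = 0.1, and the smallest adjusted p over the 21 pairs was 0.233, so no difference between members could pass the threshold.

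**Figure D3:**
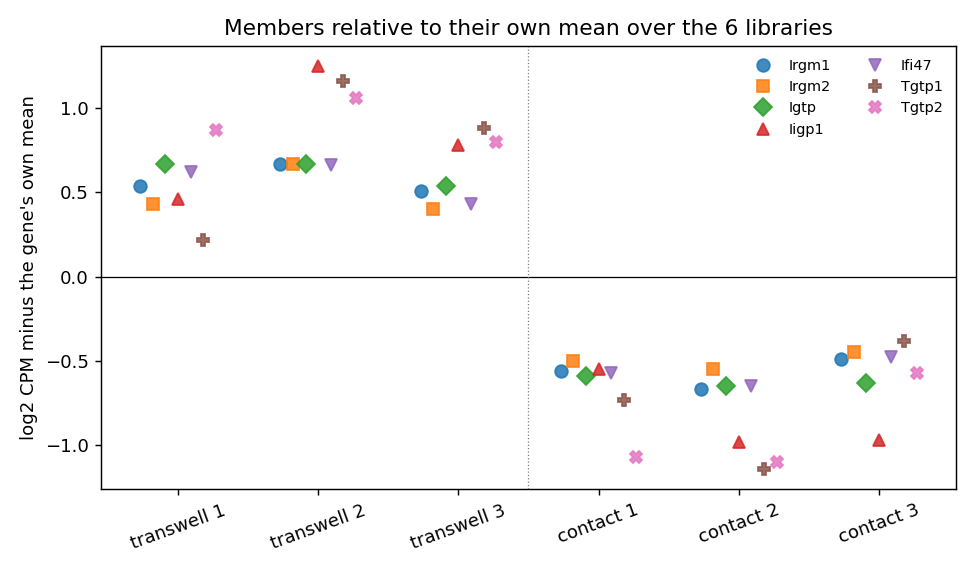
Log2 CPM (counts scaled to library size) of each member minus its own mean over the 6 libraries, by library. All 7 members lie above 0 in the transwell libraries and below 0 in the contact libraries, and Iigp1 and Tgtp1 spread more within each group than Irgm1, Irgm2, Igtp and Ifi47.

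Within a group the extremes often fell in the same library. Transwell replicate 2 held the highest value of its group for 7 of 7 members. Contact replicate 3 was highest of its group for 5 of 7 members and contact replicate 2 was lowest for 5 of 7. The summed epithelial marker level was 1650 FPKM in contact replicate 2, the highest, and 937 FPKM in contact replicate 3, the lowest, and its part in these differences was not tested. Members of a library share its RNA, so these counts are not independent. Counts varied beyond counting error in transwell libraries, with a chi-square per degree of freedom of 17.8 for Irgm2, 18 for Iigp1 and 12.3 for Ifi47 but 0.947 for Tgtp2. In contact libraries it lay between 0.12 for Igtp and 3.4 for Irgm1, where counting error alone gives about 1.

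Other genes of the IRG type were listed apart from the members. Of 10 such symbols 9 matched a row, 8 were tested, 3 fell and 0 rose, where 16.1% of all tested genes were called lower. Their median log2 change was -0.96. Gm12250, under which the effector Irgb10 is listed and which M21 annotates as a processed pseudogene, went from 23.97, 25.79 and 22.28 FPKM in transwell to 10.19, 11.67 and 13.61 FPKM in contact libraries (log2 change -1.14 ± 0.12, edgeR adjusted p = 6.01e-05). Gm5431 fell from 9.53 ± 2.35 to 4.21 ± 0.382 FPKM (SD, n = 3; log2 change -1.29), and Gm4951 from 2.79 ± 1.23 to 0.873 ± 0.429 FPKM (-1.78). F830016B08Rik (-1.05, adjusted p = 0.0918), 9930111J21Rik2 (-0.87, adjusted p = 0.084), 9930111J21Rik1 (-0.64, adjusted p = 0.328) and Gm12185 (-0.46, adjusted p = 0.286) had mean levels under 0.5 FPKM in both groups. Irgq, a family relative that interferon is not known to induce, stood at 2.9 ± 0.335 in contact and 2.66 ± 0.119 FPKM in transwell libraries (log2 change 0.01 ± 0.11, edgeR adjusted p = 0.955). Irgc1, whose product is known from the testis, had 0 to 3 counts a library and was not tested.

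Apart from Iigp1, the members sit in 2 clusters of chromosome 11, and their tested neighbours of other families were read for comparison. Within 250000 bases of the span from Irgm1 to Ifi47, 5 of 8 IRG-type genes fell, where 16.1% of all tested genes were called lower. The 5 were the members Irgm1, Ifi47, Tgtp1 and Tgtp2, which define that span, and Gm5431. Gm12185, 9930111J21Rik1 and 9930111J21Rik2 were not called. Of 10 other genes there 3 fell and 0 rose, with a median of 0.01. Those 3, named after their values were seen, were Psme2b, a relative of a proteasome activator gene (-0.87 ± 0.08), Trim41, a ubiquitin ligase gene (-0.33 ± 0.076), and the overlapping Olfr56 (-2.62 ± 0.46). Around Igtp and Irgm2, all 3 tested IRG-type genes fell, which were these members themselves and Gm12250. Of 9 other genes there 0 fell and 1, Sh3bp5l, rose (0.25 ± 0.086, edgeR adjusted p = 0.0447), with a median of -0.04.

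Upstream of the family, genes of interferon signalling fell or did not pass the test. Of 20 listed genes 18 were tested, 9 fell and 0 rose, with a median of -0.22, where 16.1% of all tested genes were called lower. Ifng, the gene of the main inducer, was close to absent, with counts of 0, 0 and 1 in the contact and of 0, 1 and 0 in the transwell libraries. Its receptor chains Ifngr1 (66.4 ± 5.84 FPKM in contact against 51.7 ± 4.71 in transwell, log2 change 0.25, adjusted p = 0.0622) and Ifngr2 (77.8 ± 2.48 against 66.7 ± 1.09 FPKM, 0.11, adjusted p = 0.239) did not pass the test. Stat2, a factor of the type I interferon response, fell from 23.6 ± 1 to 11.9 ± 0.52 FPKM (log2 change -1.10 ± 0.071, edgeR adjusted p = 3.55e-06). Ifnb1, a type I interferon gene named after its values were seen, was not tested. Its counts were 0, 2 and 0 in the contact and 0, 0 and 1 in the transwell libraries.

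The IRF factors differed among themselves. Irf7, which amplifies the type I interferon response, fell from 101 ± 5.35 to 27.5 ± 1.45 FPKM (log2 change -2.00 ± 0.074), and Irf8, a lineage factor of macrophages, from 24.6 ± 0.678 to 20.1 ± 1.01 FPKM (-0.41 ± 0.072). Irf1, a factor known to drive IRG genes, stood at 21.4 ± 1.82 against 19.6 ± 1.07 FPKM (0.02 ± 0.086, edgeR adjusted p = 0.909). Usp18, an inhibitor at the type I interferon receptor, had the largest change of this list, from 25.3 ± 2.24 to 5.53 ± 0.0981 FPKM (-2.31 ± 0.097).

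Guanylate-binding proteins (GBPs), larger interferon-induced GTPases that act on the same vacuoles as IRG effectors, went both ways. Of 11 listed genes 8 were tested, 4 fell and 2 rose, with a median of -0.49. Among all tested genes 16.1% were called lower and 21.4% higher. Gbp2 fell from 27.1 ± 0.304 to 16.1 ± 1.16 FPKM (log2 change -0.87 ± 0.083) and Gbp6 from 2.79 ± 1 to 1.16 ± 0.3 FPKM (-1.37 ± 0.26). Gbp8 rose from 0.547 ± 0.17 to 1.43 ± 0.233 FPKM (1.28 ± 0.26, edgeR adjusted p = 0.00403). Gbp5, which helps to activate inflammasomes and was named after its value was seen, also rose (0.82 ± 0.12). The difference between the IRG and GBP families was not tested.

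A list of 14 genes held the ATG8 conjugation system, the ubiquitin factors that bring IRG proteins to vacuoles, and Arhgdia, which is of neither kind. Of these 14 genes 5 fell and 2 rose, with Arhgdia among those that fell (log2 change -0.31, edgeR adjusted p = 0.0105). The median of the list was -0.10, and of all tested genes 16.1% were called lower and 21.4% higher. The ubiquitin ligase gene Trim21 fell from 7.12 ± 0.591 to 3.74 ± 0.421 FPKM (log2 change -1.04 ± 0.11) and Atg7, the activating enzyme of the conjugation system, by 0.42. Map1lc3a rose from 8.42 ± 1.07 to 16.6 ± 1.96 FPKM (0.87 ± 0.14). Atg5, needed for loading of IRG effectors, stood at 44 ± 0.821 against 40.6 ± 1.7 FPKM (log2 change 0.00 ± 0.068, edgeR adjusted p = 0.997).

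**Figure D4:**
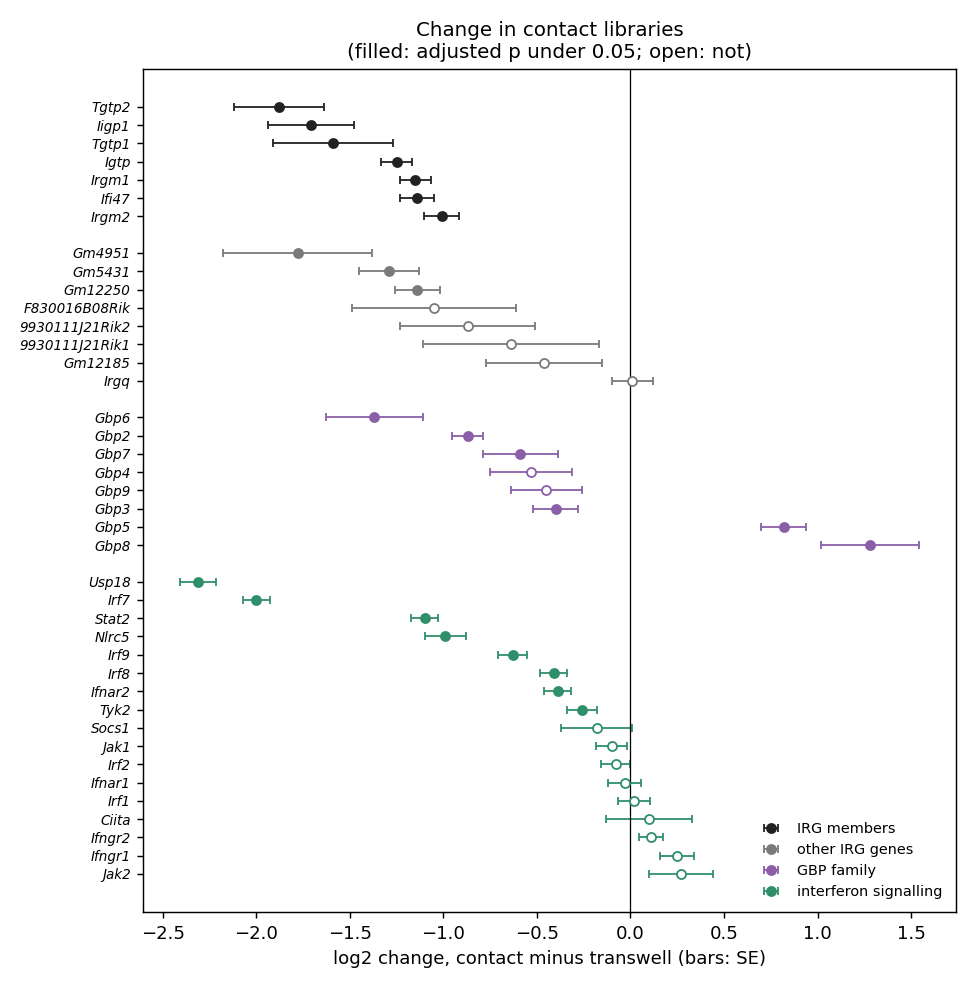
Log2 change, contact minus transwell, with SE (bars) for tested genes of 4 lists, except 1 signalling gene that is not drawn, where filled points had an adjusted p under 0.05 in edgeR's test. All 7 IRG members lie at -1.01 or below, while GBP and signalling genes spread to both sides of 0.

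The genes most like the family over the 6 libraries were found by the Euclidean distance between a gene's log2 CPM, centred on its own mean, and the mean of the centred members. The nearest named genes were Trim30c (distance 0.189), Rnf213 (0.197), Rtp4 (0.2), Adgre1 (0.25) and B3galnt1 (0.254), while the members themselves lay at 0.303 to 0.65 from their mean. Rnf213, a giant ubiquitin ligase gene, stood at 13.05, 12.03 and 16.32 FPKM in contact and at 27.85, 36.68 and 31.21 FPKM in transwell libraries, and like the members was highest in transwell replicate 2. Rtp4, an interferon-induced gene, stood at 37.6 ± 1.34 against 95.6 ± 9.67 FPKM (SD, n = 3). Adgre1, the gene of the macrophage marker F4/80, was nearly as close, at 578 ± 57.1 in contact and 1230 ± 83.7 FPKM in transwell libraries. The likeness is over 6 libraries of 2 groups and mostly follows the size and direction of the group difference.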

How the data were processed

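The 3 contact and 3 transwell libraries, made from Trizol RNA with an mRNA-seq kit per the labels, were analysed, grouped by sample title. The authors deposited raw counts per Ensembl gene and FPKM for each library, per the file headers. Of FPKM values with more than 100 counts, 99.93% lay within 1% of the value computed from count, exonic length and library total. GRCm38 and mm10 are the builds named in the submitters' processing notes. No source used here gives the aligner, counter or strand setting, so reads shared by overlapping or near-identical genes may be divided in unknown ways. Only 1472 of 52073 shared gene IDs had the table's start and end in GENCODE M21 (GRCm38), so positions come from M21 by ID.

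Counts were filtered with filterByExpr (minimum count 10, 14113 genes kept), scaled by TMM and compared with edgeR 4.0.16's two-sided quasi-likelihood test, with Benjamini-Hochberg adjustment over all tested genes and a threshold of 0.05 (R 4.3.3). SE is the absolute log2 change over the square root of F. The test was tested on simulated data. No pair of replicates agreed within sampling noise (chi-square per degree of freedom 5.9 to 22.7). Members and lists were chosen with earlier results of these data known. All members and related IRG genes are named, then the 3 largest called changes of the GBP, interferon signalling and vacuole lists, 7 genes given always, and the 5 nearest profiles; 1 gene that this rule takes is not reported here. Marker lists are given as counts and sums. Alternatives (20) were other scalings, filters and pseudocounts (1 and 0.1), DESeq2 1.42.0, limma 3.58.1, a replicate block, summed near copies and each library left out. Quantile normalization and the Igtp and Irgm2 sum were added after the data were seen. Promoters are from RefSeq (GRCm38.p6). Figures used matplotlib 3.10.9.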

Additional observations from a re-analysis of the deposited data

How the results depend on the processing

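Under all 20 alternatives the 7 members kept a lower level in contact, and every call held except that of Tgtp1 in limma on log2(FPKM + 1) without a filter, where 6 members were called. With Tgtp1 and Tgtp2, or Igtp and Irgm2, summed into 1 gene, 6 of 6 were called. Leaving out each library in turn gave 7 called members each time and medians from -1.30 to -1.23, with 2465 to 3093 genes higher and 1577 to 2217 lower. No member rose under any alternative. The size of at least 2-fold did not hold under all of them. Irgm2 changed by -0.89 with library totals alone and by -0.77 with scaling to macrophage markers. With that marker scaling Irgm1 (-0.91) and Ifi47 (-0.90) were under 2-fold too. The median of -1.25 became -1.14 with library totals alone, -1.01 with scaling to macrophage markers, -0.83 in limma on log2(FPKM + 1) with and without the filter, -1.13 with a pseudocount of 0.1, -1.05 after quantile normalization and -1.37 with Igtp and Irgm2 summed, which removes 1 of the smaller changes. Counts over all genes, 3016 higher and 2270 lower, became 3945 and 1450 with library totals alone, 5162 and 854 with macrophage scaling, 3811 and 1422 in limma on log2(FPKM + 1), 3154 and 1103 without its filter, 3900 and 1442 with a pseudocount of 0.1, and 2390 and 3418 after quantile normalization. Library totals and macrophage scaling moved the median of all genes to 0.142 and 0.27. Beyond the scalings themselves, the cause was not tested. Correlations of deviations were -0.083, -0.445 and 0.056 for libraries of the same replicate number and -0.303 to 0.336 for different numbers. With deviations centred within groups of 3, these values cannot decide whether replicate numbers pair the libraries. With a replicate block 2994 genes were higher, 2130 lower and 7 members lower. Depth limits Tgtp1 and Tgtp2, at 20 to 92 counts a library.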
